A study of Mus musculus with 7 samples.

Results

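The genes described here are 49 genes of the mouse DNA replication machinery, out of 55484 genes listed in the deposited RNA-seq count table. They were chosen by name for their known role, but with earlier results of these data known. They were compared between mouse embryonic fibroblasts (MEFs), which are connective tissue cells grown from the embryo, and mouse embryonic stem cells (mESCs), which are pluripotent cells derived from the early embryo. There were 4 MEF and 3 mESC libraries, all on a C57/Bl6 background, and no treatment, time point or age is given for either cell type. Each library is named here by its cell type and the end of its column name, as MEF O1 to MEF O4 and mESC Y1 to mESC Y3. The labels name no batch. The paper calls the RNA samples of each cell type biological replicates but gives fewer for MEFs than the 4 MEF columns used here, and no source says which cultures or animals the libraries came from, so the tests measure the spread between these libraries, part of which may be technical. Cell sorting is described for the chromatin assay of the same study (THY1+ fibroblasts, and mESCs without THY1 but with SSEA1 and EPCAM), and whether the RNA came from sorted cells is not given in the sources used here.

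DNA replication starts at origins that are marked by the origin recognition complex. During G1 phase this complex, with CDC6 and CDT1, loads the ring-shaped MCM helicase onto DNA, a step called licensing that geminin blocks later in the cycle. In S phase the kinase CDC7-DBF4 helps to fire licensed origins, CDC45 and the GINS complex join the MCM ring to make the active helicase, and polymerases alpha, delta and epsilon copy the strands with the sliding clamp PCNA, the clamp loader RFC and the single-strand binding protein RPA. Short Okazaki fragments of the lagging strand are trimmed by FEN1 and joined by DNA ligase I, and a separate set of enzymes supplies the deoxynucleotides. Most of these genes are transcribed in late G1 and S phase in dividing cells, many of them under E2F transcription factors, and mESCs are known for a fast cell cycle with a short G1 phase.

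The libraries held between 6528643 and 11441278 counts. A floor of 3 counts in a library stood at 0.288 to 0.477 CPM and covers counting error only. CPM are counts divided by the library total after adjustment by the TMM factors of edgeR, on the per-million scale. Lists of markers followed the labelled cell types, with 14 of 14 pluripotency markers higher and 14 of 14 fibroblast markers lower in mESCs. The summed fibroblast markers reached 220 to 266 CPM in the mESC libraries against 25880 to 42480 CPM in the MEF libraries. The RNA protocol in the labels speaks of blood stem cells, whose 11 markers summed to 5.34 to 19.9 CPM over all libraries, and Ptprc was not tested for lack of counts. Smooth muscle and endothelial markers summed to 178 to 238 CPM in MEFs and 27.0 to 42.2 CPM in mESCs, but the sums came from different genes. In MEFs they were mostly the smooth muscle markers Cnn1 (148 to 189 CPM) and Myh11 (22.1 to 42.5 CPM), both lower in mESCs. In mESCs they were mostly the endothelial marker Pecam1, which was higher there (22.0 to 38.3 CPM against 2.21 to 3.34 CPM in MEFs). The endothelial markers Cdh5, Kdr and Tie1 reached at most 3.66 CPM in any library.

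All 49 replication genes had enough counts to be tested, and 48 of them had at least 10 counts in every library. In mESCs 37 were higher and 1, Rrm1, was lower, while 11 did not pass the test (quasi-likelihood test of edgeR, with p-values adjusted by the Benjamini-Hochberg method over all 16580 genes tested and a threshold of 0.05). Of all genes tested, 22.8% were higher and 25.0% lower in mESCs. The median log2 fold change of the 49 genes was 0.98, and that of all genes tested was 0.04, with quartiles of -0.85 and 0.78. Of the 37 higher genes, 22 differed by at least 2-fold and 15 by less, and the largest log2 fold change was 2.08, for Orc1.

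The separation was seen in single libraries as well. In 38 of the 49 genes every mESC library lay above every MEF library, against 25.9% of all genes tested, and these were the 37 called genes and Fen1. In 1 gene, Rrm1, every mESC library lay below every MEF library, against 26.2% of all genes tested. Only 4 of the 49 genes had a log2 fold change of 0 or less, namely Rrm1, Rrm2, Tyms and Tk1, and all of these supply deoxynucleotides, though Rrm2, Tyms and Tk1 turned slightly positive without TMM scaling and with upper-quartile scaling. Added up, the 49 genes took 3727, 3585, 2833 and 2792 CPM in MEF O1 to O4 and 5628, 5888 and 5942 CPM in mESC Y1 to Y3, which is 3234 ± 491 (SD, n = 4) against 5819 ± 168 (SD, n = 3). The summed level was 1.80 times as high in mESCs, and 1.96 times without Rrm2, the gene with the widest spread.

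**Figure D1:**
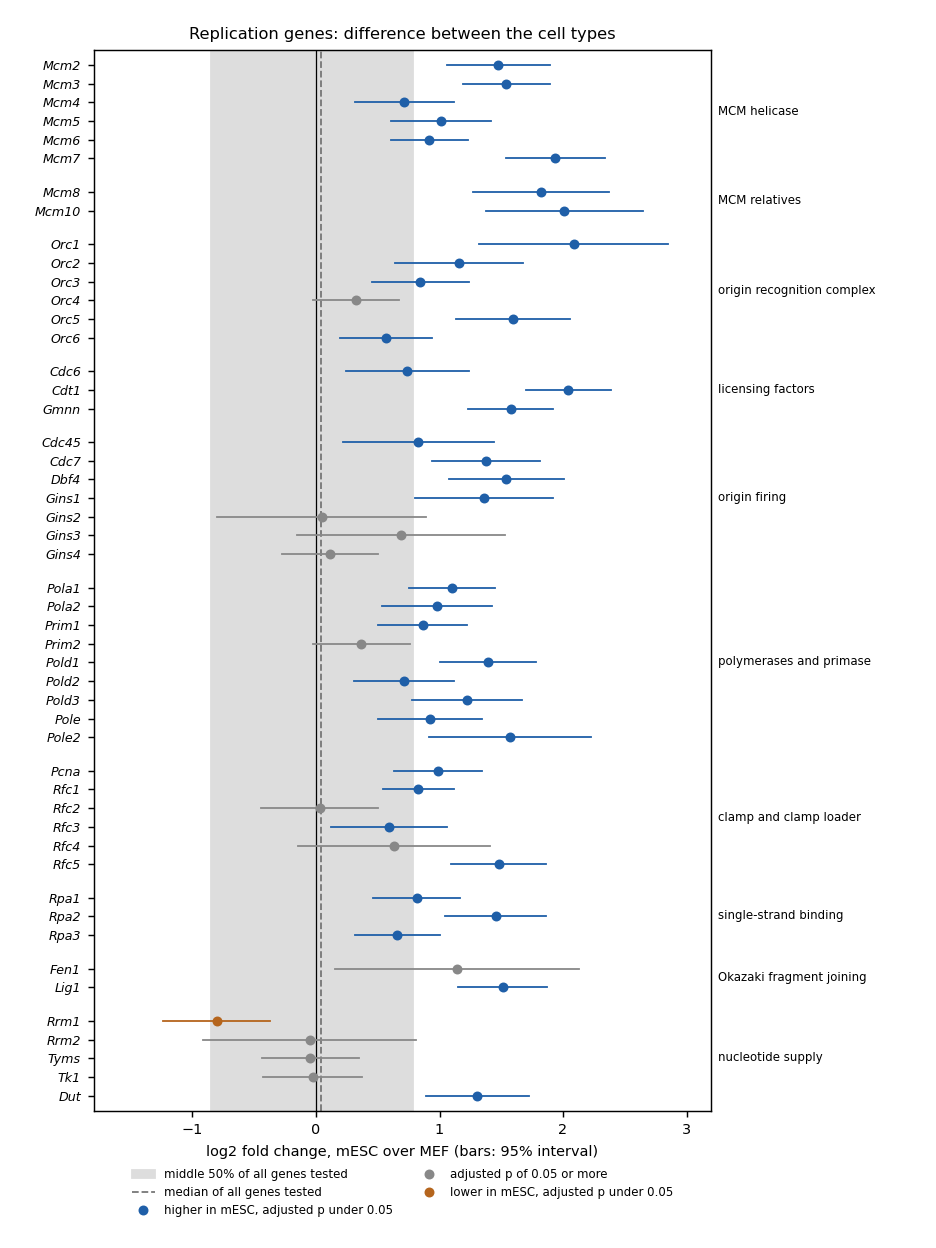
Log2 fold change of each of the 49 replication genes, mESC over MEF, with its 95% interval, ordered by role. Blue points were higher and the brown point (Rrm1) lower in mESCs, each with an adjusted p below 0.05, grey points did not pass, the grey band spans the middle 50% of all genes tested and the dashed line is their median. Of the 49 points, 45 lie to the right of 0, and the 4 others are enzymes of nucleotide supply, of which Rrm2, Tyms and Tk1 lie near 0 and change sign without TMM scaling or with upper-quartile scaling.

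Promoter sequences were not used to choose the genes. Since many replication genes are known to be under E2F factors, a high share of E2F motifs is not independent of the choice by role. RefSeq promoter sequences (assembly GRCm38.p6, 250 bases before to 50 bases after the annotated start) were at hand for 41 of the 49 genes. They were searched on both strands for 4 spellings of the E2F motif (TTTGGCGC, TTTCGCGC, TTTCCCGC and TTTGCCGC), the short sequence bound by the E2F family. In 16 of the 41 genes (39.0%) at least one promoter held a match, against 509 of 11001 tested genes with a promoter (4.63%) and 704 of 27025 genes in all (2.60%). In the 200 bases before the start alone, 9 of 41 genes (22.0%) held a match, against 3.27% of the tested genes. The general promoter elements differed less, with the CCAAT box (CCAAT) in 58.5% of the replication genes and 43.5% of the tested genes and the GC box (GGGCGG) in 78.0% and 66.9%. The CHR element (TTTGAA), known from genes of the G2 and M phases, was found in 17.1% and 14.7%.

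The following 6 promoters are shown because they belong to the genes with large rises that hold an E2F match (Orc1, Cdt1 and Mcm7), to a gene with several matches (Mcm6) and to genes of nucleotide supply without a match that did not rise (Rrm1 and Tyms). They were picked by match and change together, so they cannot show whether the 2 are linked. Dut, also of nucleotide supply, rose by 1.31 on the log2 scale without a match, and Gins3 held a match but did not pass the test. Capitals mark the E2F matches, in either orientation, and each sequence runs 5′ to 3′ on the strand of its gene.
Orc1 (chr4:108579204-108579503, plus strand): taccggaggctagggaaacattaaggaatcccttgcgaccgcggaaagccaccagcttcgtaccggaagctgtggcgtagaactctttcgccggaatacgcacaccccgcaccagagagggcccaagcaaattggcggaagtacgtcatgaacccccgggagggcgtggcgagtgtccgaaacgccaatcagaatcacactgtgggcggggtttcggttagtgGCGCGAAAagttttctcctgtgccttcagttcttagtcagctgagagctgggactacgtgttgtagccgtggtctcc
Cdt1 (chr8:122567765-122568064, plus strand): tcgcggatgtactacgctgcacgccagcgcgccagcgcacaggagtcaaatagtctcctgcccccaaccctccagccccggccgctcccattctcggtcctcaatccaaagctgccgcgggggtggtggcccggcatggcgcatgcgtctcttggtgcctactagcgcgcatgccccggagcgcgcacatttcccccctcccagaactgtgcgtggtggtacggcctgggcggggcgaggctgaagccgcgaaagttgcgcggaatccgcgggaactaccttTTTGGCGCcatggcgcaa
Mcm7 (chr5:138171834-138172133, minus strand): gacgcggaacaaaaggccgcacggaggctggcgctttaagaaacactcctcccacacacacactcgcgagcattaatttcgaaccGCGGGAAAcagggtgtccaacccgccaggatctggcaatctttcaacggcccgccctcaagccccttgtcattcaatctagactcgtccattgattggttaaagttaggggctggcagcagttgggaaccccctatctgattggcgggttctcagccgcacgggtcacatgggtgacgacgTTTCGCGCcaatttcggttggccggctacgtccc
Mcm6 (chr1:128359656-128359955, minus strand): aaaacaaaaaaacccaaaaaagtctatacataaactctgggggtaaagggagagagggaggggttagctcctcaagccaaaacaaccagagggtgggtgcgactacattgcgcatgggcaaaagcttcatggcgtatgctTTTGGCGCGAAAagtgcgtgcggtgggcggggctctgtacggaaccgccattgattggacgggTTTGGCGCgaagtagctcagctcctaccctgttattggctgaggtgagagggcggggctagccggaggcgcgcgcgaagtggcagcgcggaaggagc
Rrm1 (chr7:102441445-102441744, plus strand): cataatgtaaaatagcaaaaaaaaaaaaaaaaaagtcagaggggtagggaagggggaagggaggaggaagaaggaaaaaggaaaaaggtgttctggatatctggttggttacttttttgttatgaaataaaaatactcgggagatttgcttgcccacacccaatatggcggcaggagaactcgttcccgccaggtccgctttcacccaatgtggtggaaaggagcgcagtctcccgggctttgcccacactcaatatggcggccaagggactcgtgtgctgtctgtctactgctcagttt
Tyms (chr5:30073576-30073875, minus strand): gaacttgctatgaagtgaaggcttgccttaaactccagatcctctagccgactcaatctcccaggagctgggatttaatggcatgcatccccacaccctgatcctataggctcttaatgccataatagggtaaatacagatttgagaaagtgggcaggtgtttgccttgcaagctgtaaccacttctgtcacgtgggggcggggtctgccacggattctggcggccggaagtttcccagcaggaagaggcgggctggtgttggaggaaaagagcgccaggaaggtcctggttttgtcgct
Counted from 0 at the annotated start, the match of Orc1 began at -27 and that of Cdt1 at 32. Mcm7 held matches at -165 and 16, and the last base of the second is also the first base of a CCAAT box. Mcm6 held 3 matches, at -110, -106 and -47, and the first and second lie on opposite strands and share bases. Mcm3, Mcm5 and Rfc3 also held more than 1 match.

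Among the 16 genes with an E2F match, 15 were higher in mESCs and 1, Gins3, did not pass, with a median log2 fold change of 1.31 and a range of 0.59 (Rfc3) to 2.08 (Orc1). Of the 25 genes with a promoter but no match, 18 were higher, 1 was lower and 6 did not pass, with a median of 0.86 and a range of -0.81 to 2.01. The ranges overlap, and Mcm10, Gmnn, Dbf4 and Orc5 are examples of large rises with no match or no promoter in the table. The Mcm10 promoter ends in tttggcg at the edge of the window, so a match cut off there cannot be seen. No gene of nucleotide supply held a match in this window. A match gives only letters, and E2F binding was not measured in these libraries.

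**Figure D2:**
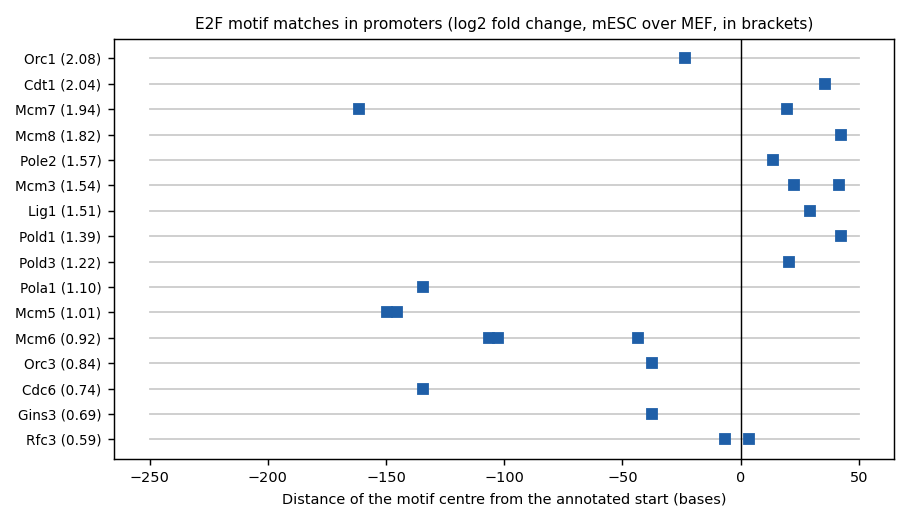
Position of each E2F motif match in the promoters of the 16 replication genes that hold one, as the distance of the motif's centre from the annotated start in bases. Genes are ordered by log2 fold change (in brackets), each grey line is 1 promoter from 250 bases before to 50 bases after the start, and matches lie on both sides of the start.

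All 6 subunits of the MCM ring rose in mESCs. Mcm7 (chromosome 5 of GRCm38, 138164583 to 138172422) stood at 49.7, 34.6, 36.4 and 32.1 CPM in the MEF libraries and at 131, 150.5 and 158 CPM in the mESC libraries. Every mESC library held more than 2 times the highest MEF value, and the log2 fold change was 1.94 (SE 0.18, edgeR adjusted p = 1.02e-05). Mcm3 stood at 51.1, 64.8, 53.3 and 51.5 CPM in MEFs and 140.4, 160.1 and 181 CPM in mESCs, a log2 fold change of 1.54 (SE 0.16, edgeR adjusted p = 1.88e-05). Mcm2 rose by 1.48 and Mcm5 by 1.01 on the log2 scale. Mcm6 rose by 0.92 and Mcm4 by 0.71, the smallest rise of the ring. The proteins form a ring with 1 copy of each, yet the rises of their mRNAs ranged from 1.64-fold for Mcm4 to 3.83-fold for Mcm7. Differences between these subunits were not tested, and Mcm7 shares 23.3% of its 50-base sequences with other annotated genes, which makes its counts less certain. The summed level of the 6 genes was 506 ± 48.4 CPM in MEFs (SD, n = 4) and 1177 ± 32.6 CPM in mESCs (SD, n = 3).

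Mcm8 and Mcm10 carry the MCM name but do not code for subunits of this ring, and both rose more than most of its subunits. Mcm10, which helps to activate the helicase at firing, stood at 17.4, 31.6, 13.8 and 13.8 CPM in MEFs and 67.4, 73.5 and 90.02 CPM in mESCs. MEF O2 lay well above the other MEF libraries, but the groups did not overlap, and the log2 fold change was 2.01 (SE 0.29, edgeR adjusted p = 0.0002). Mcm8, whose product acts with MCM9 in recombination repair, stood at 19.2, 14.3, 12.9 and 8.59 CPM in MEFs and 46.6, 50.1 and 50.02 CPM in mESCs. Its log2 fold change was 1.82 (SE 0.25, edgeR adjusted p = 0.00015), while Mcm9, read at 1.37 to 5.31 CPM in these libraries, did not pass the test.

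Of the 6 subunits of the origin recognition complex, 5 rose and Orc4 did not pass. Orc1, the subunit whose level is known to vary through the cell cycle, had the largest fold change of all 49 genes, although its level was low. It stood at 7.003, 5.95, 2.76 and 3.34 CPM in MEFs, all above the floor, and at 18.1, 19.4 and 23.6 CPM in mESCs, a log2 fold change of 2.08 (SE 0.35, edgeR adjusted p = 0.00057). Orc5 stood at 16.3, 10.98, 15.7 and 11.6 CPM in MEFs and 40.8, 44.1 and 39.6 CPM in mESCs, a log2 fold change of 1.60 (SE 0.21, edgeR adjusted p = 0.000104). Both genes rose at least 3-fold, and the other subunits rose less. The log2 fold change was 1.16 for Orc2, 0.84 for Orc3 and 0.56 for Orc6, and the call of Orc6 was lost without mESC Y3. Orc4 stood at 58.4, 50.9, 48.8 and 45.5 CPM in MEFs and 68.7, 57.6 and 65.0 CPM in mESCs. MEF O1 lay above mESC Y2, so the groups overlapped, and the log2 fold change was 0.32 with a 95% interval of -0.03 to 0.67 (edgeR adjusted p = 0.115).

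The licensing factors all rose, and they included both the loader CDT1 and its inhibitor. Cdt1 (chromosome 8, 122568015 to 122573554) stood at 31.2, 28.5, 26.5 and 23.1 CPM in MEFs and 112, 112 and 114 CPM in mESCs. The 3 mESC libraries were nearly equal, the log2 fold change was 2.04 (SE 0.16), and the adjusted p of 2.31e-06 in edgeR was the smallest of the 49 genes. Gmnn, which codes for geminin, the inhibitor of CDT1, stood at 154, 155.5, 117 and 118 CPM in MEFs and 382, 388 and 446 CPM in mESCs, a log2 fold change of 1.57 (SE 0.15, edgeR adjusted p = 1.36e-05). Cdc6, which recruits the helicase together with CDT1, rose less, by 0.74 on the log2 scale. Its call was lost without mESC Y1 and without mESC Y3, where the log2 fold change stayed positive.

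Of the 7 genes of origin firing, 4 were higher in mESCs, and 3 subunits of the GINS complex did not pass the test. Dbf4, the activating subunit of the CDC7 kinase, stood at 63.7, 43.9, 35.1 and 38.0 CPM in MEFs and 139, 122 and 134 CPM in mESCs, a log2 fold change of 1.54 (SE 0.21, edgeR adjusted p = 0.00014). Cdc7, the kinase itself, stood at 23.6, 21.5, 25.4 and 15.9 CPM in MEFs and 51.7, 62.2 and 55.1 CPM in mESCs, a log2 fold change of 1.38 (SE 0.20, edgeR adjusted p = 0.000197). The kinase and its activator thus rose by similar amounts, and neither group overlapped. Cdc45 rose by 0.83 on the log2 scale, a call that was lost without MEF O3, MEF O4, mESC Y2 or mESC Y3.

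Gins1 was the only subunit of its complex past the test, with a rise of 1.36 on the log2 scale (SE 0.25, edgeR adjusted p = 0.00113). Gins2 stood at 6.52, 3.05, 4.31 and 3.98 CPM in MEFs and 4.12, 5.23 and 4.60 CPM in mESCs, with a log2 fold change of 0.05 and a 95% interval of -0.80 to 0.89. Gins3 stood at 10.5, 6.40, 8.39 and 13.8 CPM in MEFs and 7.80, 20.8 and 18.6 CPM in mESCs. mESC Y1 lay within the MEF values and the other mESC libraries above them, and the log2 fold change of 0.69 (95% interval -0.15 to 1.53, edgeR adjusted p = 0.161) passed only when mESC Y1 was left out. Gins4 stood at 49.9, 56.4, 40.6 and 59.6 CPM in MEFs and 60.2, 50.5 and 56.9 CPM in mESCs, with a log2 fold change of 0.11 and a 95% interval of -0.28 to 0.50. The interval of Gins4 ends below the rise of Gins1, and that of Gins3 does not. The interval of Gins2 also ends below that rise, but it covers only the spread between libraries. In Gins2, 100% of the last 500 exon bases lie on exons of Gse1 on the opposite strand. The part of this overlap in the counts of Gins2 was not tested.

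Polymerase and primase genes rose in 8 of 9 cases. Pole2, a subunit of the leading strand polymerase epsilon, stood at 5.28, 7.17, 4.07 and 5.73 CPM in MEFs and 14.1, 20.8 and 14.5 CPM in mESCs, a log2 fold change of 1.57 (SE 0.29, edgeR adjusted p = 0.00124). Pold1, the catalytic subunit of the lagging strand polymerase delta, stood at 18.0, 22.0, 20.9 and 19.7 CPM in MEFs and 59.5, 53.4 and 45.4 CPM in mESCs, a log2 fold change of 1.39 (SE 0.18, edgeR adjusted p = 8.53e-05). The MEF libraries of Pold1 differed by 1.22 times from the lowest to the highest, among the narrowest spreads of the set. The other subunits rose too, Pold3 by 1.22, Pold2 by 0.71 and Pole, the catalytic subunit of polymerase epsilon, by 0.92 on the log2 scale, and the call of Pold2 was lost without mESC Y1. In polymerase alpha, which starts each new strand with the primase, Pola1 rose by 1.10 and Pola2 by 0.98, and the primase subunit Prim1 rose by 0.86. Prim2, the large primase subunit, stood at 29.5, 26.7, 32.5 and 26.1 CPM in MEFs and 39.1, 39.4 and 32.3 CPM in mESCs. Only MEF O3 reached the lowest mESC library, and the log2 fold change was 0.37 with a 95% interval of -0.03 to 0.76 (edgeR adjusted p = 0.114).

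The sliding clamp and its loader gave 4 higher genes of 6. Rfc5, a small subunit of the loader, stood at 41.2, 38.0, 28.6 and 30.7 CPM in MEFs and 92.7, 92.3 and 104.5 CPM in mESCs, a log2 fold change of 1.48 (SE 0.17, edgeR adjusted p = 4.92e-05). Pcna, the clamp, stood at 119, 104, 85.6 and 105 CPM in MEFs and 178, 201 and 235 CPM in mESCs, a log2 fold change of 0.99 (SE 0.16, edgeR adjusted p = 0.000493). The large loader subunit Rfc1 rose by 0.83 on the log2 scale. Rfc3 rose by 0.59 (edgeR adjusted p = 0.0388), the least certain call of the set, since it was lost when any one library other than MEF O1 was left out.

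The 2 remaining loader subunits did not pass the test. Rfc2 stood at 64.0, 88.3, 61.1 and 94.2 CPM in MEFs and 91.9, 59.8 and 83.5 CPM in mESCs, with a log2 fold change of 0.03 and a 95% interval of -0.44 to 0.50. Rfc4 stood at 4.99, 6.86, 6.11 and 4.14 CPM in MEFs and 6.503, 7.04 and 12.2 CPM in mESCs, with a log2 fold change of 0.63 and a 95% interval of -0.15 to 1.41 (edgeR adjusted p = 0.165). The higher mean of Rfc4 in mESCs came mostly from mESC Y3. All 3 subunits of RPA rose. Rpa2, its middle subunit, stood at 24.9, 23.2, 21.0 and 19.4 CPM in MEFs and 58.4, 51.2 and 72.6 CPM in mESCs, a log2 fold change of 1.46 (SE 0.18, edgeR adjusted p = 8.75e-05). Rpa1, the large subunit, stood at 40.1, 55.0, 47.9 and 44.4 CPM in MEFs and 79.2, 87.4 and 80.6 CPM in mESCs, a log2 fold change of 0.82 (SE 0.16, edgeR adjusted p = 0.00158). The small subunit Rpa3 rose by 0.66 on the log2 scale, close to Rpa1, and Rpa2 had the largest rise of the 3. Differences between the subunits were not tested.

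Okazaki fragment joining was covered by 2 genes with very different counts. Lig1, DNA ligase I, stood at 143, 108, 150.3 and 159.5 CPM in MEFs and 350.3, 401 and 450 CPM in mESCs, a log2 fold change of 1.51 (SE 0.16, edgeR adjusted p = 2.64e-05). Fen1, the flap endonuclease, was read at 2.398, 1.68, 1.68 and 1.11 CPM in MEFs and 4.44, 3.07 and 4.01 CPM in mESCs, and its lowest library held 7 counts. The groups of Fen1 did not overlap, but the log2 fold change of 1.14 had a 95% interval of 0.15 to 2.13 and missed the threshold (edgeR adjusted p = 0.0539). Under the alternatives tried, its adjusted p ran from 0.0196 to 0.2.

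**Figure D3:**
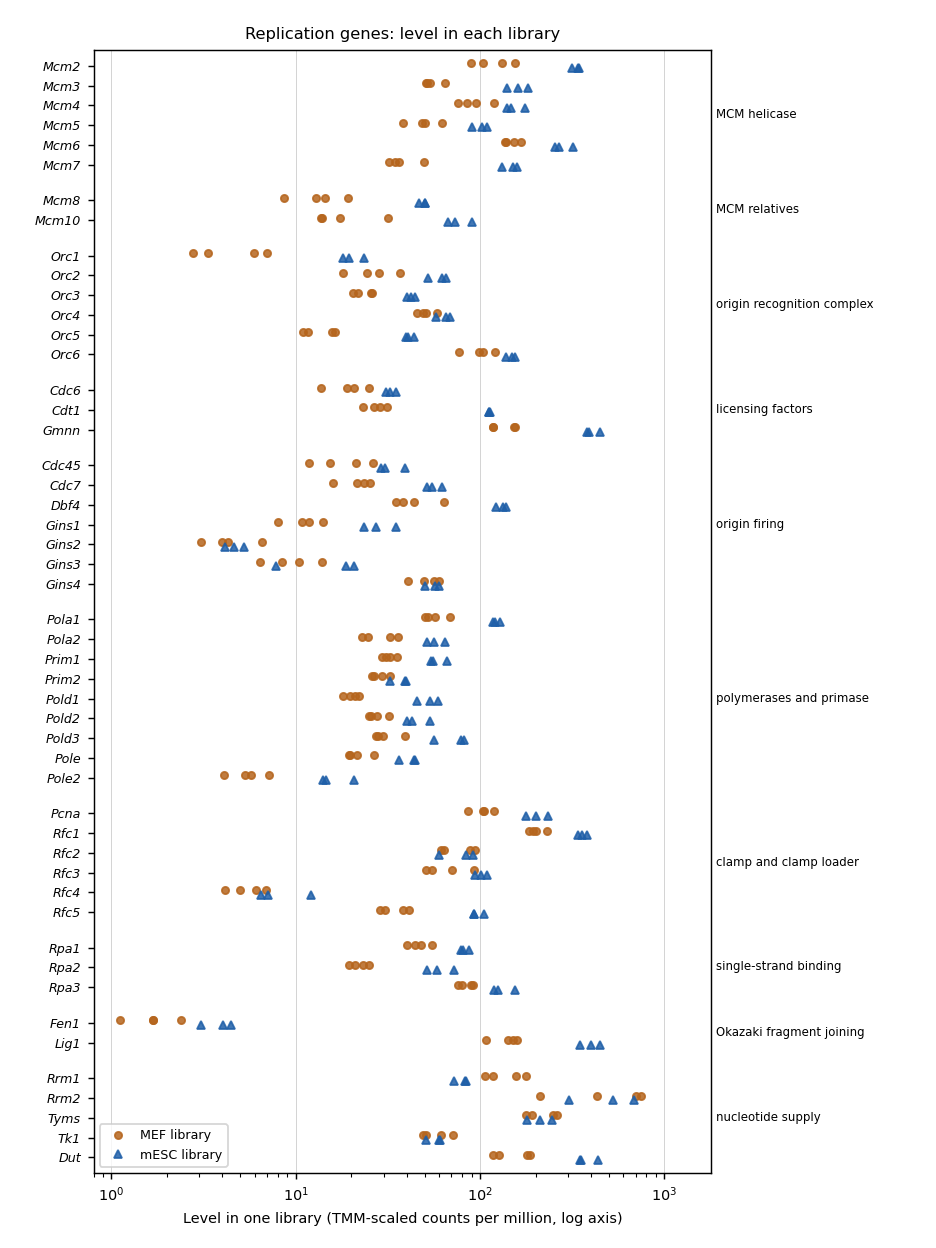
Level of each of the 49 replication genes in each library, in TMM-scaled CPM on a log axis, ordered by role. Each circle is 1 of 4 MEF libraries and each triangle 1 of 3 mESC libraries, and in 38 genes all triangles lie to the right of all circles, while Rrm1 has them to the left.

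The enzymes of nucleotide supply were the exception, with 1 of 5 genes higher, 1 lower and 3 not past the test. Rrm1 (chromosome 7, 102441695 to 102469771), the large subunit of ribonucleotide reductase, which makes deoxynucleotides from ribonucleotides, stood at 156, 178, 118 and 106 CPM in MEFs and 72.4, 82.9 and 84.1 CPM in mESCs. Every mESC library lay below every MEF library, and the log2 fold change was -0.81 (SE 0.20, edgeR adjusted p = 0.00647). Rrm2, the small subunit of the same enzyme, whose level is known to follow S phase, stood at 747, 702, 429 and 211.5 CPM in MEFs and 527.5, 681 and 304 CPM in mESCs. Both cell types spread widely for Rrm2, with a 3.53-fold range in MEFs, and the log2 fold change of -0.05 had a 95% interval of -0.91 to 0.81, which leaves a rise or a fall of nearly 2-fold undetected.

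Tyms, thymidylate synthase, stood at 261, 248, 179 and 191 CPM in MEFs and 210.3, 180.3 and 247 CPM in mESCs, with a log2 fold change of -0.05 and a 95% interval of -0.44 to 0.35. Tk1, the thymidine kinase of the salvage pathway, stood at 61.7, 71.7, 48.8 and 50.7 CPM in MEFs and 60.2, 60.4 and 50.6 CPM in mESCs, with a log2 fold change of -0.03 and a 95% interval of -0.43 to 0.37. Both intervals lie below the median rise of the 49 genes. Dut, the dUTPase that keeps uracil out of DNA, was the 1 gene of the group that rose, from 186, 180.0, 118 and 127.5 CPM in MEFs to 347, 353 and 434.5 CPM in mESCs, a log2 fold change of 1.31 (SE 0.19, edgeR adjusted p = 0.000211). The summed level of the 5 genes overlapped between the cell types, at 686.5 to 1412 CPM in MEFs and 1121 to 1357 CPM in mESCs, while each of the 9 other roles had every mESC sum above every MEF sum.

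**Figure D4:**
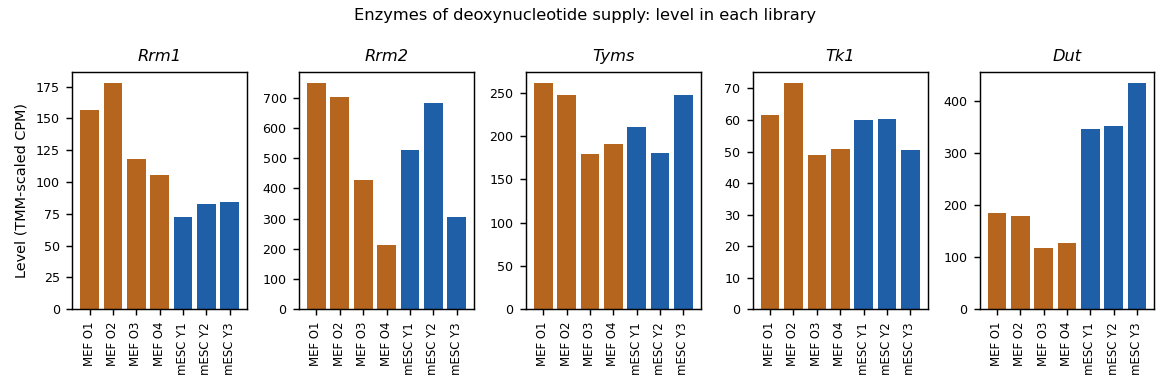
Level of the 5 enzymes of nucleotide supply in each library, in TMM-scaled CPM, with brown bars for the 4 MEF and blue bars for the 3 mESC libraries. Rrm1 was lower in every mESC library, Dut was higher in every mESC library, and the bars of Rrm2, Tyms and Tk1 overlap between the cell types.

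Ratios of 2 genes within a library do not depend on how libraries are scaled. The pairs here were picked after the values were seen, mostly as a large and a small change within a role, so their separation was fixed by the choice and is given as a description. The log2 ratio of Mcm7 to Mcm4 was -1.39 to -1.24 in MEFs and -0.22 to 0.17 in mESCs, without overlap. Orc1 over Orc4 ran from -4.14 to -3.06 in MEFs and from -1.93 to -1.46 in mESCs, and Rfc5 over Rfc2 from -1.62 to -0.64 and from 0.01 to 0.63. The ratio of the licensing factor Cdt1 to its inhibitor Gmnn was -2.45 to -2.14 in MEFs and -1.97 to -1.77 in mESCs, again without overlap. Within nucleotide supply, Dut over Tyms lay between -0.60 and -0.46 in MEFs and between 0.72 and 0.97 in mESCs. Rrm1 over Pcna lay between 0.01 and 0.78 in MEFs and between -1.48 and -1.28 in mESCs, whereas the ratio of the reductase subunits Rrm2 to Rrm1 overlapped, at 0.998 to 2.26 in MEFs and 1.86 to 3.04 in mESCs. Orc4, Rfc5 and other genes whose counts are uncertain from overlaps are among these pairs.

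**Figure D5:**
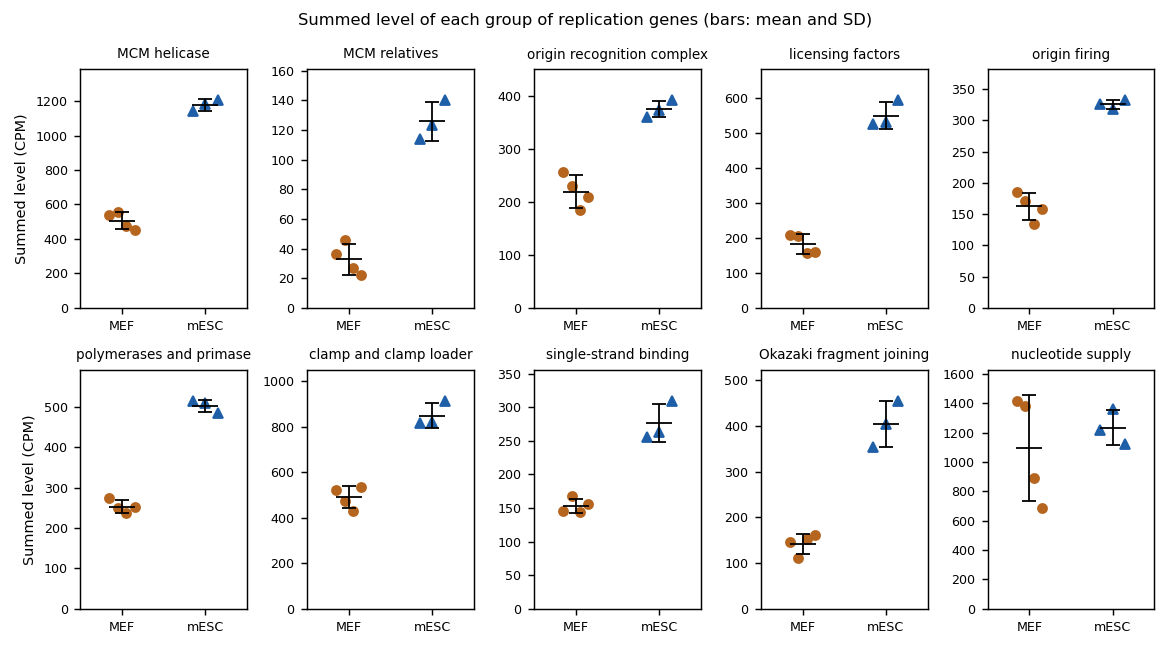
Summed TMM-scaled CPM of the genes of each of 10 roles in each library, with circles for the 4 MEF and triangles for the 3 mESC libraries and bars for the mean and SD. The mESC libraries lie above the MEF libraries in 9 roles, and the 2 cell types overlap in nucleotide supply.

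The MEF libraries also differed among themselves. Of the 49 genes, 21 had their lowest MEF value in MEF O3 and 17 in MEF O4, against 3 in MEF O1 and 8 in MEF O2, where each library held the lowest value of 22.8% to 27.4% of all genes. MEF O1 held the highest MEF value of 23 of the 49 genes and MEF O2 of 16, against 24.3% and 25.0% of all genes. The summed G2 and M phase genes showed the same order, with 1985 and 1984 CPM in MEF O1 and O2 and 1621 and 1585 CPM in MEF O3 and O4. Rrm2, Dut and the MCM sums were likewise higher in MEF O1 and O2 than in MEF O3 and O4. Other roles did not follow this order, as the clamp and loader sum was highest in MEF O4 (534.5 CPM) and Okazaki fragment joining stood at 152 and 161 CPM in MEF O3 and O4 against 145 and 110.1 CPM in MEF O1 and O2. The part of cell cycle stage or culture state in these differences was not tested. The sum of the 49 genes spread less between the mESC libraries, with an SD of 168 CPM against 491 CPM in MEFs. This depended on Rrm2, since without it the SD was 285 CPM in mESCs and 266 CPM in MEFs. mESC Y1 held the lowest mESC value of 24 of the 49 genes, against 31.6% of all genes.

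The machinery beyond the 49 genes moved the same way in most cases. Of 62 further replication genes in 4 lists, 59 had enough counts, and 34 were higher and 7 lower in mESCs, with a median log2 fold change of 0.82. The number of lower genes depended on the scaling and was 2 without TMM scaling and 4 with upper-quartile scaling. Among 19 fork accessory factors, 11 were higher and 3 lower, led by Dna2, a nuclease of Okazaki fragment processing (2.64), by Top2b, the topoisomerase II form that non-dividing cells also use (-1.85), and by Atad5, which unloads the clamp (1.78). Among 17 regulators of licensing and firing, 9 were higher and 1 lower, led by Rif1, a timing factor also known for its high level in mESCs (3.01), Ticrr, which helps CDC45 to load (2.73), and Fbxo5, which inhibits the anaphase-promoting complex (1.48). Ccne2 was the 1 lower gene of that list.

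Among 12 genes of chromatin assembly at forks, 8 were higher and 1, Asf1b, was lower, and the largest rises were those of Hells, a chromatin remodeller (2.53), Nasp, a histone chaperone (1.59), and Mms22l (1.46). Among 14 other nucleotide enzymes, 6 were higher and 2, Samhd1 and Nme1, were lower. Shmt1, a serine hydroxymethyltransferase of folate metabolism, rose by 2.16, Cad, which starts pyrimidine synthesis, by 1.497, and Dctpp1, a dCTP pyrophosphatase, by 1.47 on the log2 scale. Samhd1 degrades deoxynucleotides, and Nme1 is a nucleoside diphosphate kinase.

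Genes of other phases of the cell cycle also differed. Of 17 genes of the G2 and M phases, 12 were higher in mESCs and 5 did not pass, with a median log2 fold change of 1.02, against 0.98 for the 49 replication genes. Their summed level was 1.78 times as high in mESCs, close to the 1.80 times of the replication genes. Cenpf, Bub1b and Ccnb1 rose by 1.53, 1.45 and 1.42, while Mki67, Cdk1, Plk1, Birc5 and Tpx2 did not pass. In bulk RNA a larger share of cycling or S phase cells and more replication mRNA per cell cannot be told apart, and the part of either in these values was not tested.

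Some counts are uncertain because of where the genes lie. The counts come from the 3′ ends of mRNAs, and the strand setting of the counting is not given in the sources used here. In GENCODE M21, 25% or more of the last 500 exon bases lie on exons of the opposite strand in 6 of the 49 genes. These are Gins2 (100% on Gse1), Orc2 (100% on Nif3l1), Rfc5 (99.8% on Wsb2), Orc4 (89.2% on Acvr2a and Mbd5), Fen1 (88.6% on Tmem258 and Gm10143) and Rfc4 (38.8% on Eif4a2). Of these 6 genes, 2 were higher and 4 did not pass, so 4 of the 11 genes not past the test have such an overlap. In Pole2, 49% of these bases lie on Gm49384 on the same strand. Mcm7 and Pcna share 23.3% and 19.1% of their 50-base sequences with other annotated genes. Orc1, Orc6, Cdc45, Pole2, Rfc2, Rpa3 and Tyms share between 5.02% (Orc6) and 16.0% (Rfc2). In Orc1, Orc6, Cdc45, Pole2 and Rfc2 most is shared with a gene that overlaps at the same place (Gm12743, Vps35, Ufd1, Gm49384 and Lat2). Rpa3 and Tyms share sequence with genes that they do not overlap. For all of these genes, which gene such reads were assigned to is not known. Without the 15 genes that overlap or share sequence, 28 of 34 were higher and 1 lower, with a median log2 fold change of 0.998.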

How the data were processed

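RNA was read by 3′-biased libraries with unique molecular identifiers (UMIs). As the methods and labels state, the authors demultiplexed reads with Sabre, trimmed them with Cutadapt, aligned them to mm10 (GRCm38) with STAR (2.4.2a in the submitters' processing notes, another version in the methods), collapsed UMIs with Je and counted uniquely mapped exonic reads with featureCounts. These deposited counts are whole numbers and were not normalized by the authors. Strand setting and annotation release are not given in the sources used here. The column names give the cell type but are not stated to carry the sample numbers of the titles, so columns were assigned to groups only, and 0 columns were left unused.

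All 7 libraries entered edgeR 4.0.16, run under R 4.3.3 with limma 3.58.1, with TMM scaling, filterByExpr and the quasi-likelihood test without covariates. p-values were Benjamini-Hochberg adjusted over 16580 genes, with 0.05 as the threshold. CPM values are TMM-scaled, errors of means are SDs over libraries, and intervals of log2 fold changes are at 95%. The fit was tested on simulated data. Libraries of a cell type differed beyond sampling noise (chi-square over degrees of freedom 15.6 to 31.1), so none was a copy of another. Alternatives were other scalings, filters, a test against a fold of 1.5, DESeq2 1.42.0 and leaving out each library. Counting without genes of overlapping or shared sequence was added after the values were seen. All 49 genes are named, with values per library for the 2 called genes of each role with the largest change, for Rrm1 and for all genes not past the test, and 3 genes for each further list. The members and lists were chosen with earlier results of these data known.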

Additional observations from a re-analysis of the deposited data

Results flagged for a closer look

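One MEF value stood apart from its group. Mcm3 in MEF O2 reached 64.8 CPM (425 counts), while the other MEF libraries lay between 51.1 and 53.3 CPM, and this gap took up 0.839 of the range of the 4 MEF values. It was the 1 such value among the 49 genes, where chance gives about 1 in 20, or 2.45. All mESC libraries of Mcm3 lay above MEF O2.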

How the results depend on the processing

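Under every alternative tried, 28 to 41 of the 49 genes were higher in mESCs, and Rrm1 was lower under each except the test against a fold of 1.5, which left 28 higher and 0 lower (adjusted p of Rrm1 0.12 in edgeR). Scaling by library size alone gave 41 higher genes, upper-quartile scaling 40 and DESeq2 38. The first and second of these raised the median of all genes by 0.28 and 0.20 on the log2 scale and the share of higher calls among all calls from 47.7% to 60.8% and 57.0%, and no filter raised the median by 0.11. Leaving out one library at a time gave 33 (without mESC Y3) to 38 (without MEF O1) higher genes. The summed level of the 49 genes was 2.19 times as high in mESCs on library totals, and with TMM scaling their mean log2CPM differed by 0.99. Of 686 values of single genes, 628 kept direction and call, 24 lost the call, 12 gained it and 22 changed sign. Without scaling Rrm2, Tyms and Tk1 turned to 0.24, 0.24 and 0.26, and with upper-quartile scaling to 0.14, 0.15 and 0.17. Rfc2 turned to -0.004 with no filter. Leaving out one library gave -0.10 to 0.29 for Gins2, -0.11 to 0.19 for Rfc2, -0.33 to 0.20 for Rrm2, -0.17 to 0.056 for Tyms and -0.11 to 0.08 for Tk1, and the cause was not tested. Of the 62 further replication genes, 22 were higher and 2 lower against a fold of 1.5, 2 were lower without scaling, 4 with upper-quartile scaling, and 4 (without mESC Y1 or mESC Y2) to 7 without one library. The E2F motif was found in 9 genes in the 200 bases before the start. Fen1 passed with DESeq2, its size factors, no scaling, upper-quartile scaling, the stricter filter of 10 counts, or without MEF O1. No paired analysis was possible because no source ties a column's number to a numbered sample, so the planned replicate block was not run. Counts were lowest for Fen1, with 7 in its lowest library, and 88.6% of its last 500 exon bases lie on exons of the opposite strand. The part of this overlap in its low counts was not tested.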
